A study of Meleagris gallopavo with 18 samples.

Results

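The genes described here encode parts of the axoneme, the bundle of microtubules that bends to move cilia and the sperm tail. They are 5 loci out of the 56037 in the deposited gene table, chosen by name: CCDC40, DRC3, DRC7, RSPH9 and CFAP69. The loci carry the identifiers MSTRG.25127, MSTRG.17489, MSTRG.14095, MSTRG.21084 and MSTRG.41369 in that order. In the transcript table they hold 27 of the 103847 transcripts. RNA was sequenced from the testis (T), the epididymis (E) and the ductus deferens (DD) of 6 male turkeys, birds 2, 11, 12, 14, 15 and 16, which gave 18 libraries. All birds were 38 weeks old at sampling, produced semen, and had been moved at 26 weeks to days of 14 h light and 10 h darkness. All groups shared this light treatment, the labels give no strain or genetic change, and the tissue was the difference between the groups. Because the same 6 birds gave all 3 tissues and each library is a whole tissue, fewer cells of a type and less RNA per cell cannot be told apart. Using these same libraries, the study had placed CCDC40, RSPH9 and CFAP69 among sperm motility genes that differ in the ductus deferens. The direction of these genes is therefore not independent evidence. DRC3 and DRC7 were named from its tables that relate long non-coding RNAs to genes differing between these tissues. The same limit therefore holds for them.

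Motile cilia and the sperm tail share one axoneme plan. Dynein arms on the outer microtubule doublets make the doublets slide, the nexin-dynein regulatory complex links neighbouring doublets and turns sliding into bending, and radial spokes carry signals from the central pair of microtubules to the dyneins. In the testis, axonemes are built in spermatids. In birds the tissue dissected as epididymis consists largely of efferent ductules, whose lining contains cells with motile cilia. CCDC40 helps to set the spacing along each doublet at which the regulatory complex and the inner dynein arms attach, and its loss in humans gives primary ciliary dyskinesia. DRC3 and DRC7 are subunits of the regulatory complex itself, and DRC7 is needed to form the sperm tail in mice. RSPH9 sits in the head of the radial spoke. CFAP69 is required for the sperm tail in mice and humans.

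The libraries held between 64143451 and 118625345 counts. Levels are given as CPM, the counts of a gene per 1000000 counts of its library after TMM scaling, which corrects for differences in library composition. A count of 3, the least taken as detection, corresponded to 0.0187 to 0.0676 CPM. The number of loci with at least 1 count ran from 17596 in the epididymis of bird 12 to 43510 in the testis of bird 12. These libraries also had the lowest and the highest TMM factor, 0.689 and 1.73. Markers were set beside the tissue labels. They were chosen from the study's named loci with earlier results of these data known, so they are not an independent check. Summed levels of 5 germ cell markers were 449 to 868 CPM in the testes and 24.4 to 50.8 CPM in the epididymides. In the ductus deferens they were 4.37 to 13.1 CPM. Summed levels of 4 markers of absorptive duct epithelium were 395 to 1240 CPM in the epididymides and at most 44.6 CPM elsewhere.

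All 5 genes were lowest in the ductus deferens, and 4 of them were highest in the testis, whereas RSPH9 was highest in the epididymis. CCDC40, the spacing protein, had 127, 251 and 347 CPM in the testis as the lowest, the median and the highest of 6 birds. In the epididymis its levels were 91.4, 127 and 145 CPM. In the ductus deferens they were 6.97, 13.4 and 15.3 CPM. The lowest testis, bird 11, lay inside the epididymal range, so these tissues overlapped for CCDC40. The mean in the epididymis was 48.4% of that in the testis, and the mean in the ductus deferens was 4.75%.

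DRC3, a subunit of the regulatory complex, separated all 3 tissues without overlap. Its levels in the testis were 97.8, 111 and 120 CPM. Their mean was 111 CPM with an SD of 7.93 CPM, but with library size alone in place of TMM it was 133 CPM with an SD of 34.5 CPM, so the narrow spread depended on the scaling. The epididymis had 12.7, 21.3 and 32.4 CPM. The ductus deferens had 0.169, 0.293 and 1.94 CPM, from 12 to 189 counts. The lowest testis was therefore 3.02 times the highest epididymis, and the lowest epididymis was 6.53 times the highest ductus deferens.

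At the locus of DRC7, the other subunit of that complex, levels were close between the upstream tissues and very low in the ductus deferens. Most of these counts were on transcripts that the study lists as long non-coding RNA, as described below. Testis levels were 58.0, 64.7 and 83.6 CPM. Epididymal levels were 18.1, 44.4 and 55.6 CPM, so the ranges were separated by a factor of 1.04. With library size alone they overlapped, since the lowest testis had 51.6 CPM and the highest epididymis 60.1 CPM. In the ductus deferens 4 of 6 libraries had no count for DRC7, bird 11 had 0.174 CPM from 12 counts, and bird 15 had 0.606 CPM from 59 counts. The mean there was 0.191% of that in the testis, the lowest share of the 5 genes.

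RSPH9, the radial spoke head protein, was the exception in the order of the tissues. It had 24.4, 39.0 and 57.0 CPM in the testis. In the epididymis it had 65.1, 86.5 and 183 CPM, and these ranges did not overlap. With library size alone they did, because the testis of bird 12 then had 98.5 CPM and 4 epididymides lay between 67.7 and 93.1 CPM. In the ductus deferens it had 3.52, 4.32 and 8.24 CPM. The epididymal mean was 258% of the testis mean, and the ductus deferens retained 12.4%, the highest share of the 5 genes.

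CFAP69, a protein of the sperm tail, varied most among the testes. The lowest level was 12.7 CPM in bird 11, the median 47.2 CPM and the highest 108 CPM in bird 12. The epididymis had 7.30, 30.0 and 39.96 CPM, and the testis of bird 11 fell inside this range. The ductus deferens had 1.73, 2.90 and 3.58 CPM, below every other library. The SD among the testes was 59.6% of the mean, against 31.3% in the ductus deferens.

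**Figure D1:**
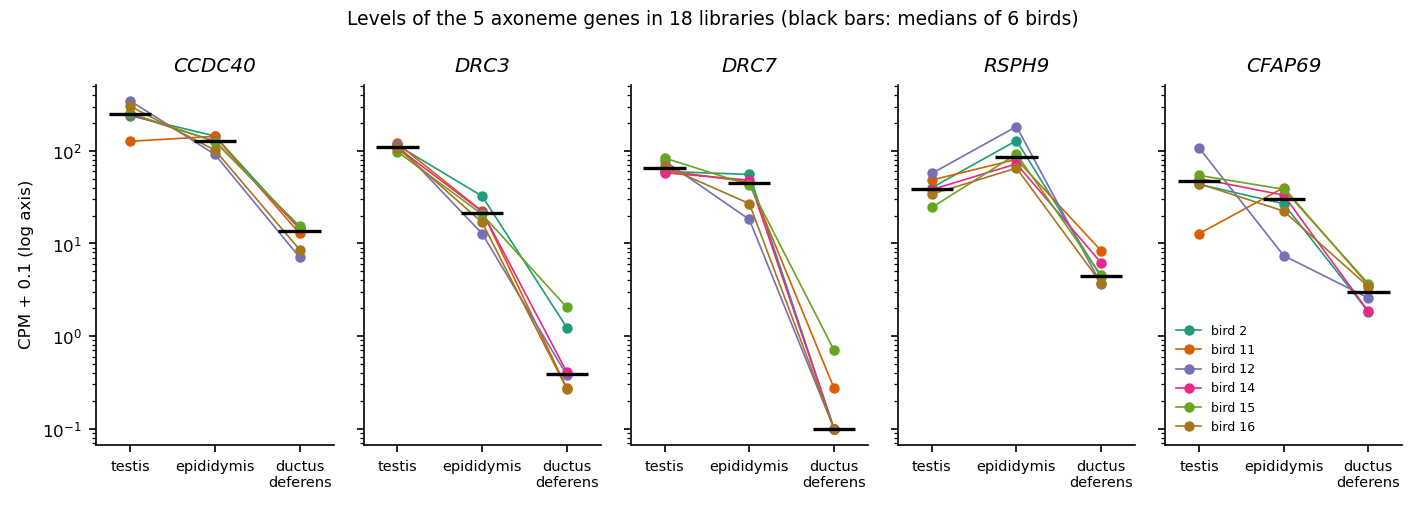
Levels of CCDC40, DRC3, DRC7, RSPH9 and CFAP69 in CPM plus 0.1 on a log axis, 1 point per library, with lines joining the tissues of a bird and black bars at the median of 6 birds. Every ductus deferens library lies below every testis and epididymis library of the same gene, and RSPH9 is the gene whose lines rise from testis to epididymis in 6 of 6 birds.

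The first comparison, testis against epididymis, asks how the gland that makes the sperm differs from the first duct it enters. DRC3 was higher in the testis by 2.46 on the log2 scale (SE 0.26), with an adjusted p of 6.6e-06 (quasi-likelihood F test of edgeR, adjusted over all genes by the Benjamini-Hochberg method). CCDC40 was higher by 1.13 (SE 0.28, edgeR adjusted p 0.0040), and RSPH9 was lower in the testis, at -1.32 (SE 0.33, edgeR adjusted p 0.0042). A gene was called when its adjusted p was under 0.01 and its log2 fold change was beyond 1 in either direction. Thus 2 of 5 genes were called higher in the testis and 1 higher in the epididymis, beside 23.0% and 12.9% of the 28489 genes tested, and with 5 genes these shares are not set apart from the background.

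The calls of DRC7 and CFAP69 depended on single libraries and settings. DRC7 had a log2 fold change of 0.86 (SE 0.29, edgeR adjusted p 0.023) and CFAP69 one of 1.03 (SE 0.49, edgeR adjusted p 0.093). Without the testis of bird 11, a choice made after the data had been seen, both were called, DRC7 at 1.04 with an edgeR adjusted p of 0.0042 and CFAP69 at 1.39 with an edgeR adjusted p of 0.0097. RSPH9 lost its call without that testis, at -1.29 with an edgeR adjusted p of 0.016. Of all genes tested without it, 35.7% were called. The ranges of the tissues did not overlap for DRC3 and DRC7, higher in the testis, and for RSPH9, higher in the epididymis, beside 24.6% and 11.6% of the genes tested. With library size alone only DRC3 kept this separation.

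Comparing tissues inside each bird removes only differences that its tissues share, and these were small. Over all genes the mean correlation of deviations from the tissue mean was 0.0076 within birds and -0.00081 between birds. Each value therefore carries the departures of both libraries of a bird. DRC3 was higher in the testis of every bird, by 1.82 to 3.19 on the log2 scale. DRC7 was higher in 6 of 6 birds as well, but by 0.11 in bird 2 and by 2.11 in bird 12. CCDC40 and CFAP69 were higher in 5 of 6 birds, with bird 11 as the exception at -0.18 and -1.66. RSPH9 was lower in the testis of 6 of 6 birds, between -1.92 and -0.74. With the bird as a block in the fit, DRC3 and RSPH9 were called and CCDC40 was not, at 1.05 with an edgeR adjusted p of 0.028, beside 22.0% of all genes called in that fit.

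**Figure D2:**
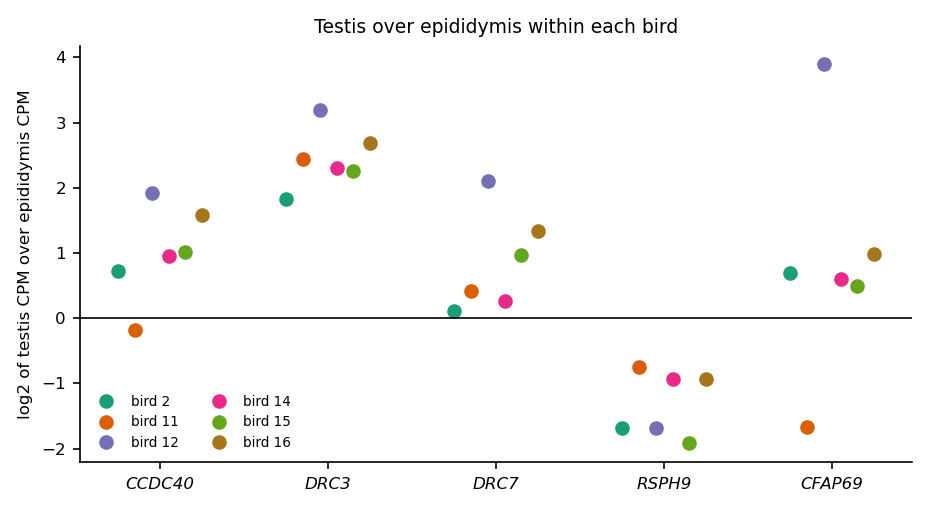
Log2 of the testis level over the epididymis level of the same bird for each gene, 1 point per bird, with the line at 0 marking equal levels. All 6 points of DRC3 lie at or above 1.82, all 6 of RSPH9 lie at or below -0.74, and CFAP69 spans -1.66 in bird 11 to 3.89 in bird 12.

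The scaling of the libraries moved this comparison. The median log2 fold change of all genes tested was 0.30 with TMM and 0.56 with library size alone, 0.53 with upper-quartile scaling and 0.67 with DESeq2. Relative to the TMM median, DRC7 at 0.86 lay closer to the other genes than its distance from 0 implies. RSPH9 stayed lower in the testis under each of these scalings but was called with TMM alone. It was at -0.90 with library size alone (edgeR adjusted p 0.033), at -1.32 with upper-quartile scaling (edgeR adjusted p 0.024) and at -1.07 with DESeq2 (DESeq2 adjusted p 0.027).

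Ratios between genes of one library do not depend on scaling. The ratio of DRC3 to RSPH9 was 1.02 to 2.00 on the log2 scale in the testes and -3.85 to -1.72 in the epididymides. Most counts of the DRC7 locus were on transcripts that the study lists as long non-coding RNA, so its ratios describe the locus. The ratio of DRC3 to DRC7, subunits of the same complex, was 0.23 to 0.97 in the testes and -1.13 to -0.51 in the epididymides. CCDC40 over DRC3 ran the other way, from 0.08 to 1.58 in the testes and from 2.16 to 2.85 in the epididymides. In all, 5 of the 10 pairs of genes had ratios that did not overlap between testis and epididymis, beside 39.6% of the pairs formed by one of these genes with another tested gene. With 10 pairs that share genes, this is not set apart from the background. Each of these 5 pairs contained DRC3 or RSPH9, as do most of the 10 possible pairs. The ratio of CCDC40 to DRC7 overlapped, at 1.05 to 2.16 in the testes and 1.38 to 2.34 in the epididymides.

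The second comparison, testis against ductus deferens, sets the gland against the last duct before ejaculation. All 5 genes were called higher in the testis, beside 30.4% of the 27550 genes tested. DRC7 had the largest log2 fold change, 9.06 (SE 1.22, edgeR adjusted p 3.0e-05), a value set in part by the 4 ductus deferens libraries without counts. DRC3 followed at 7.47 (SE 0.68, edgeR adjusted p 1.4e-06). CCDC40 had 4.49 (SE 0.33), CFAP69 4.38 (SE 0.50) and RSPH9 3.07 (SE 0.33), with edgeR adjusted p of 8.5e-06 or less. No testis overlapped any ductus deferens for these genes, beside 29.5% of the genes tested. The median of the 5 genes was 4.49, against 0.59 over all genes tested.

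The third comparison, epididymis against ductus deferens, follows the sperm from the first duct to the last. It had the fewest calls among all genes, and 4.22% of the 22695 tested were called higher in the epididymis. All 5 axoneme genes were among them. The log2 fold changes were 8.11 for DRC7 (SE 1.29, edgeR adjusted p 0.00096) and 4.92 for DRC3 (SE 0.66, edgeR adjusted p 0.00027). RSPH9 had 4.34 (SE 0.39, edgeR adjusted p 1.1e-05). CCDC40 had 3.27 (SE 0.22) and CFAP69 3.24 (SE 0.38), with edgeR adjusted p of 1.5e-06 and 9.6e-05. The lowest epididymis was at least 2.04 times the highest ductus deferens for each gene, and 6.01% of all tested genes were separated in this direction. The median was 4.34 for the 5 genes and 0.05 for all genes tested. The comparisons share libraries, so they are not independent of each other. All 5 calls of this comparison and all 5 of the second were kept with the bird as a block, and the former also without the epididymis of bird 12. With the block 2.15% and 24.3% of all genes were called in these directions, and without that epididymis 7.57% were.

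Other cilium genes named in the study's tables were set beside these axoneme genes. The tables relate long non-coding RNAs to genes that the study had found to differ between tissues in these libraries. Calls in the list were therefore fixed in part in advance, and the shares over all genes are not an equal background. The list held 18 genes for dynein arms, dynein arm assembly, radial spokes, other axonemal proteins, and the building of cilia and its regulators. Between epididymis and ductus deferens 16 of 18 were called higher in the epididymis and none lower, with a median log2 fold change of 3.99, beside 4.22% of all genes called higher. With the bird as a block 13 of 18 were called, beside 2.15%. Between testis and ductus deferens 16 were called higher in the testis, beside 30.4% of all genes, and 1 was called lower. Between testis and epididymis 9 were called higher in the testis and 2 lower, beside 23.0% and 12.9% of all genes, and 7 were not called, with a median of 1.05. With the bird as a block 7 were called higher and 2 lower there, beside 22.0% of all genes called in either direction.

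The extremes of the list marked the difference between the gland and the first duct. TEKT3, a filament protein of the doublet wall, was 190 to 675 CPM in the testes and 4.04 to 8.72 CPM in the epididymides, a log2 fold change of 5.55 (SE 0.38, edgeR adjusted p 3.2e-07). DNAH5, a heavy chain of the outer dynein arm, was 0.07 to 2.61 CPM in the testes and 86.6 to 407 CPM in the epididymides, at -7.09 (SE 0.83, edgeR adjusted p 1.8e-05). Neither gene's ranges overlapped. Against the ductus deferens, TEKT3 also had the largest fold change from the testis, 9.01 (SE 0.87, edgeR adjusted p 2.1e-06). CCNO, a cyclin-like protein that drives the amplification of centrioles in multiciliated cells, had the lowest, -3.04 (SE 0.61, edgeR adjusted p 0.00066). Between epididymis and ductus deferens DNAH5 was the highest, at 10.61 (SE 1.27, edgeR adjusted p 0.00011) with 3 ductus deferens libraries at 0. DNAAF5, which acts in the assembly of dynein arms, was the lowest, at 0.64 (SE 0.25, edgeR adjusted p 0.15).

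RSPH9 can be set beside the other radial spoke genes of the list. RSPH3, a protein of the spoke stalk, was 149 to 340 CPM in the testes and 26.1 to 62.6 CPM in the epididymides, and was called higher in the testis at 2.17 (SE 0.29, edgeR adjusted p 4.8e-05). IQUB, a protein of the radial spokes in mice, had 18.3 to 151 CPM in the testes and 35.9 to 128 CPM in the epididymides, a log2 fold change of -0.26 (SE 0.45, edgeR adjusted p 0.66). The spoke genes therefore had values on both sides of 0 between these tissues, while all 3 were called higher in each of them than in the ductus deferens. The difference between RSPH9 and RSPH3 was not tested.

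**Figure D3:**
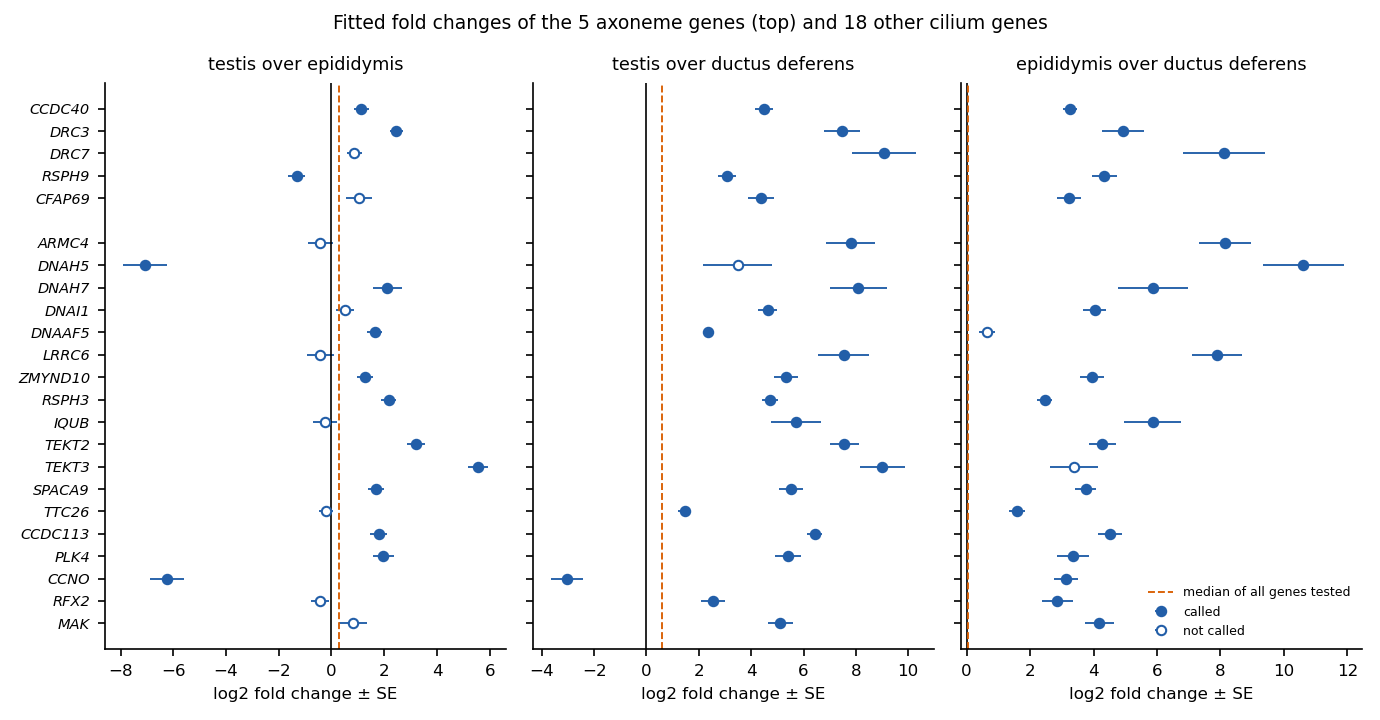
Fitted log2 fold changes with SE for the 5 axoneme genes at the top and 18 other cilium genes below, in the 3 comparisons, with filled points for called genes and a dashed line at the median of all genes tested. In both comparisons with the ductus deferens the 5 genes lie at 3.07 or above, and between testis and epididymis they spread from -1.32 for RSPH9 to 2.46 for DRC3.

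Markers of other cell types also differed between the tissues, though not all of them in every comparison. Of the 5 germ cell markers 4 were called higher in the testis than in the epididymis, beside 23.0% of all genes, and all 5 higher than in the ductus deferens, beside 30.4%. With the bird as a block 3 of 5 were called higher in the testis than in the epididymis, beside 3998 of the 28489 genes tested. Between epididymis and ductus deferens 2 of the 4 germ cell markers tested were called higher in the epididymis, beside 4.22% of all genes. With the block 0 of 4 were, beside 2.15%. HORMAD1, MEIOC and SLC26A8 overlapped between these ducts. The epididymal mean of the germ cell markers was 0.939% of the testis mean for MEIOC and 2.47% for HORMAD1, both of which act in meiosis. It was 18.1% for PCSK4, 24.8% for NDC80 and 24.9% for SLC26A8. The corresponding shares were 19.0% for DRC3, which lay among the last 3 markers, 48.4% for CCDC40, 53.7% for CFAP69, 58.1% for DRC7 and 258% for RSPH9. The 2 genes taken as markers of multiciliated epithelium differed from each other, and RFX2 did not set the epididymis apart from the testis. CCNO was 0.0495 to 1.27 CPM in the testes, 25.4 to 72.0 CPM in the epididymides and 3.15 to 7.42 CPM in the ductus deferens. RFX2, a transcription factor of ciliated cells, was 28.4 to 74.8 CPM in the testes and 27.2 to 82.0 CPM in the epididymides, which overlapped, and 1.61 to 16.4 CPM in the last duct. Between testis and epididymis CCNO was called, at -6.23 (SE 0.65, edgeR adjusted p 7.4e-06), and RFX2 was not, at -0.43 (SE 0.32, edgeR adjusted p 0.28). Of the other markers of duct epithelium and wall, those given here had their highest median in the ductus deferens, unlike the 5 genes. The 1 marker of that list that is not reported did not. KRT19, a keratin of duct epithelium, was 11.0 to 26.5 CPM in the testes, 8.49 to 50.9 CPM in the epididymides and 89.96 to 1039 CPM in the ductus deferens. LAD1 was 2.63 to 11.7 CPM, 107.5 to 307 CPM and 203 to 499 CPM in the same order. CSRP1 was 92.3 to 576 CPM, 653 to 2060 CPM and 1630 to 4353 CPM. LAD1 and CSRP1 overlapped between epididymis and ductus deferens. Of the 4 markers of this list, 1 was called higher in the ductus deferens than in the epididymis and 3 were not called. Among all 22695 genes tested, 254 were called in that direction. The part of these cell types in the levels of the 5 genes was not tested.

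The birds differed most in a few libraries. The epididymis of bird 12 had the lowest level of 4 genes and the highest of RSPH9. Relative to the median of the other 5 epididymides it held 71.5% for CCDC40 and 57.5% for DRC3. It held 39.3% for DRC7 and 22.0% for CFAP69, but 226% for RSPH9. With library size alone it held 14.7% for CFAP69 and 140% for RSPH9. Of the 18 other cilium genes 11 lay below the remaining epididymides and 3 lay above, namely DNAH5, TEKT2 and CCNO. The share of all genes outside the range of the other epididymides was not counted. This library had the fewest loci with counts and the lowest TMM factor. The numbers are therefore not read as a trait of cilium genes. The germ cell markers were uneven in that library. NDC80 was at 12.9% of the median of the others and SLC26A8 had no count, both below the others. MEIOC at 11.4%, PCSK4 at 87.5% and HORMAD1 at 151% lay inside the range of the others. The germ cell marker sum of that library was the lowest of the 6 epididymides. The absorptive epithelium markers there all lay below the other epididymides. LRP2 was at 62.6%, HNF4A at 19.0%, CDHR2 at 21.2% and AQP9 at 61.1% of the median of the others. Their sum was the lowest of the 6 epididymides as well. The part of germ cells or of absorptive epithelium in these differences was not tested. Without this library RSPH9 remained called between testis and epididymis, at -1.01 (SE 0.27, edgeR adjusted p 0.0057), when 44.7% of all genes were called.

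Among the testes, the lowest and highest levels of the 5 genes fell on birds 11, 12, 14 and 15. Bird 15 was lowest for DRC3 and RSPH9 and highest for DRC7, and bird 14 was lowest for DRC7. The testis of bird 11 had 49.6% of the median of the others for CCDC40 and 25.2% for CFAP69. It had 111% for DRC3, the highest of the 6 testes, but with library size alone 80.2%, the lowest. The testis of bird 12 was highest for CCDC40, RSPH9 and CFAP69, with 140%, 150% and 245% of the median of the others. These shares were 208%, 242% and 371% with library size alone. In the ductus deferens bird 15 was highest for CCDC40, DRC3, DRC7 and CFAP69, and bird 11 was highest for RSPH9. Of the 18 other cilium genes, 9 lay above and 7 below the remaining testes in bird 11, and 6 above and 4 below in bird 12. The share of all genes outside these ranges was not counted. The germ cell markers were also uneven among the testes. Bird 11 had the highest HORMAD1, at 631 CPM, and PCSK4, and the lowest MEIOC, at 37.4 CPM, and NDC80. Its testis was also highest for HNF4A, CDHR2, KRT19, LAD1 and CSRP1, and lowest for LRP2 and AQP9. The cause was not tested.

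The deposited transcripts of the 5 loci added up exactly to the gene counts in every library, so the transcripts divide the levels above. They ranged from 1 transcript for CCDC40 to 12 for DRC3. Of the 27 transcripts, the testes had at least 1 count on 26, the epididymides on 21 and the ductus deferens on 11, and 4 were counted in testes alone. Of the latter, MSTRG.17489.5 and ENSMGAT00000017743 each had counts in a single testis. Over all loci the testes had counts on 36879 to 43510, the epididymides on 17596 to 34711 and the ductus deferens on 21196 to 27526. The share over all transcripts was not counted. How reads shared by several transcripts were divided is not given in the sources used here, so shares of overlapping transcripts are uncertain. All counts of CCDC40 were on ENSMGAT00000006775. Those of RSPH9 were on MSTRG.21084.1 in 17 of 18 libraries, and in the testis of bird 14 ENSMGAT00000017743 held 17.3%.

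The transcripts of DRC7 that held counts were not the same in each tissue. MSTRG.14095.3 had counts in 6 of 6 testes, from 5.66 to 24.4 CPM and from 7.28% to 39.8% of the locus. It had no count in any epididymis or ductus deferens. The difference between testis and epididymis was called (edgeR adjusted p 0.00023), but not with the bird as a block (edgeR adjusted p 0.032), and no fold change is given because the epididymis was at 0. MSTRG.14095.3 was abundant enough to be tested through the testes alone, so its direction was fixed in advance. MSTRG.14095.1 was the leading transcript in 5 testes and 5 epididymides, with medians of 65.7% and 99.0% of the locus. MSTRG.14095.4 and ENSMGAT00000003907 held 0.91% to 12.5% and 0.40% to 16.0% of the locus in the testes and at most 3.12% in any epididymis. In the epididymis of bird 11 MSTRG.14095.2 led instead, with 35.0 of 46.0 CPM, while the other epididymides had at most 2 counts of it, and without this transcript bird 11 had 10.9 CPM of DRC7, the lowest of the 6 epididymides. The study's tables list MSTRG.14095.1 and MSTRG.14095.3 among its lncRNA transcripts. Together they held 81.7% of the summed DRC7 counts of the testes, 83.0% of those of the epididymides and 100% of those of the last duct, so most of the level of this locus is on transcripts with that listing. The other DRC7 transcripts together had 0.787, 12.0 and 22.0 CPM in the testis as the lowest, the median and the highest. In the epididymis they had 0.0, 0.537 and 35.9 CPM, the highest in bird 11. The closeness of the locus medians in these tissues therefore does not describe these other transcripts.

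CFAP69 differed from bird to bird in the transcript that led. In the testis MSTRG.41369.5 led in birds 2 and 16, MSTRG.41369.3 in birds 11 and 15, MSTRG.41369.4 in bird 12 and MSTRG.41369.1 in bird 14. MSTRG.41369.4 reached 99.5 CPM in the testis of bird 12, 92.1% of the locus, and had at most 1 count in any other testis. Without this transcript the testis of bird 12 had 8.54 CPM of CFAP69, the lowest of the 6 testes rather than the highest. In the epididymis MSTRG.41369.1 led in 5 birds and MSTRG.41369.3 in bird 2, with 93.2%. In the ductus deferens MSTRG.41369.1 held all counts in 5 birds and 71.1% in bird 2. MSTRG.41369.2 stayed at or below 16.6% of the locus in every library. MSTRG.41369.6 held 22.9% to 35.9% of the locus in 4 epididymides and had over 1 count in a single testis, bird 14, where it held 23.7%.

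DRC3 was spread over the most transcripts. The testes had counts on 7 to 9 of its 12 transcripts, led by MSTRG.17489.4 in 4 birds and by MSTRG.17489.10 in birds 2 and 11. The leading transcript held 28.3% to 44.4% of the locus. MSTRG.17489.10 held 9.59% to 43.2% in the testes. MSTRG.17489.4 held 23.9% to 44.4% there and 0 to 100% in the epididymides, where 4 different transcripts led. Counts of the locus were far lower in the epididymides, 563 to 3244 against 8236 to 18578 in the testes, which limits the shares. Of the other DRC3 transcripts with at least 5% of the counts in a tissue, MSTRG.17489.8 held 1.19% to 26.6% and MSTRG.17489.3 held 2.20% to 17.0% in the testes. MSTRG.17489.9, with up to 29.2%, had counts in 3 testes, MSTRG.17489.1 in 5, with up to 17.9%, and MSTRG.17489.2 stayed at or below 1.51% in the testes. In the epididymis of bird 16, however, MSTRG.17489.2 led with 55.7%, and it held all counts of the locus in the ductus deferens of birds 11 and 16, from 12 and 15 counts. MSTRG.17489.12 held at most 1.53% in the testes and a median of 8.36% in the epididymides.

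**Figure D4:**
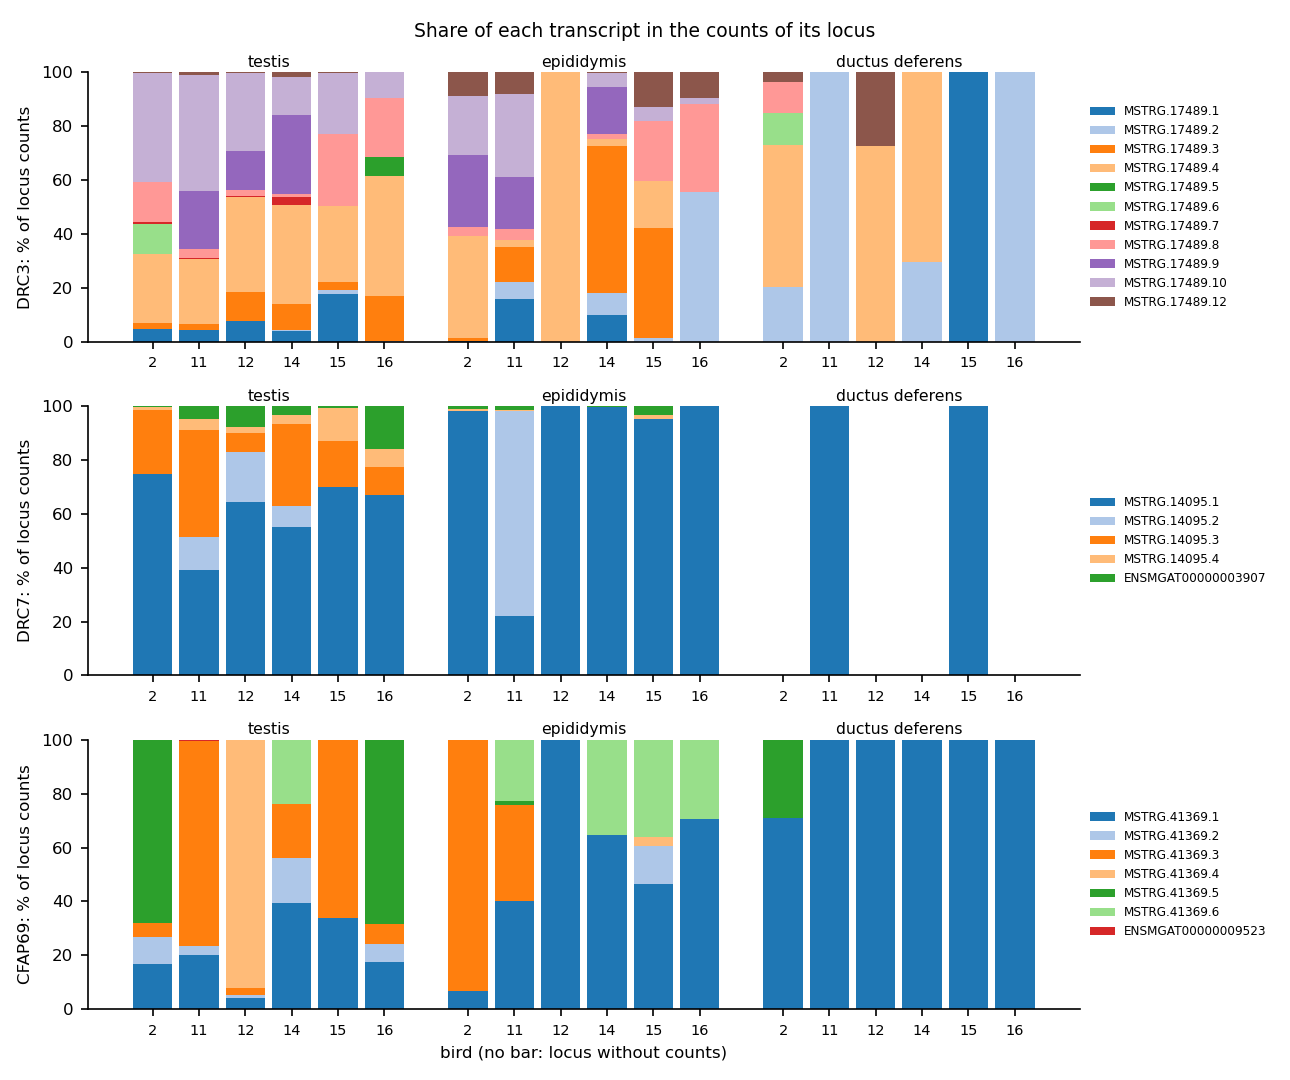
Share of each transcript in the counts of DRC3, DRC7 and CFAP69, in percent, with 1 stacked bar per library ordered by tissue and bird. The DRC7 transcript MSTRG.14095.3 appears in all 6 testes and in no duct library, and CFAP69 has 4 different leading transcripts among the 6 testes.

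The transcripts were also tested one by one. Between testis and epididymis 16 of the 27 were abundant enough to be tested and 2 were called, ENSMGAT00000006775 of CCDC40 and MSTRG.14095.3, both higher in the testis, beside 12.1% of all transcripts tested. Between testis and ductus deferens 11 of 13 were called, all higher in the testis, beside 18.8% of all. Of these, MSTRG.17489.3, MSTRG.17489.10, MSTRG.14095.3, MSTRG.14095.4, ENSMGAT00000003907 and MSTRG.41369.3 had no count in any ductus deferens. They were abundant enough to be tested through the testes alone, so their direction was fixed in advance. The same holds for MSTRG.14095.3 between testis and epididymis. Between epididymis and ductus deferens 2 of 6 were called, those of CCDC40 and RSPH9, beside 0.91% of all, both higher in the epididymis. With the bird as a block, edgeR called 0, 3 and 0 of these transcripts. The shares of all transcripts called in those fits were 1.06%, 6.1% and 0.0%. No transcript at all, of 37795 tested, was called between epididymis and ductus deferens in that fit.

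Loci with similar profiles were sought among 78 named loci. Likeness was measured as the mean absolute difference of log2(CPM + 1) over 18 libraries, each locus centred on its own mean, and is a description over libraries that share birds and depth. CFAP69 was nearest to MAK, a kinase of male germ cells and cilia, at 0.264, and no other of the 30703 loci compared was nearer. Next for CFAP69 came NDC80 and DNAI1, at 0.443 and 0.450. DRC3 was nearest to TEKT2 at 0.417, CCDC113 at 0.418 and SPACA9 at 0.525. CCDC40 was nearest to SPACA9, DNAI1 and MAK, at 0.450 to 0.465. For DRC7 the order was CCDC113, ARMC4 and ZMYND10, at 0.520 to 0.609. RSPH9 had the most distant neighbours, ITM2C at 0.634, DNAI1 at 0.731 and RFX2 at 0.776, and 31 loci lay nearer than ITM2C. Over all loci compared, 10 lay nearer to CCDC40 than SPACA9, 6 nearer to DRC3 than TEKT2 and 13 nearer to DRC7 than CCDC113. The median distance over all loci ran from 1.53 for CFAP69 to 2.39 for DRC7, so distances are not on an equal scale between genes. Among the 5 genes themselves CCDC40 and CFAP69 were most alike, at 0.485, and DRC3 and RSPH9 least, at 1.57.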

How the data were processed

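Whole testis, epididymis and ductus deferens of 6 turkeys were sequenced from stranded poly(A) libraries. Reads were trimmed by the authors (Trimmomatic 0.38), aligned to an earlier build of the turkey genome (STAR 2.4) and used to extend its annotation (StringTie 1.3.3). What the authors deposited are raw counts of genes and of transcripts, without normalization. The counting tool and its use of strand are not given in the sources used here, so reads of overlapping and antisense genes cannot be told apart. Gene names were those that the study's tables pair with a locus (83 loci). Those tables cover genes that the study had called different between tissues. The 5 symbols were also present in the RefSeq gene table. No sequences or coordinates were used here, and the authors' own fold changes and p-values were not used.

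Each pair of tissues was fitted with 12 libraries in edgeR 4.0.16 (R 4.3.3; TMM, filterByExpr, robust quasi-likelihood test), with Benjamini-Hochberg adjustment over all genes or transcripts tested. The test was also run on simulated counts for testis against epididymis. These had a single spread for all genes, no bird effect and few changed genes. The simulation therefore does not bear on the scaling or on departures of single libraries. SE was taken from the fold change and its F value. Since the labels give each bird's number, the tissues are paired by animal, and the bird as a block was the alternative. Over 30708 genes the mean correlation of deviations from the tissue mean was 0.0076, -0.00029 and 0.062 within birds (testis with epididymis, testis with ductus deferens, epididymis with ductus deferens) and -0.00081, 0.00015 and -0.010 between birds. Other alternatives were DESeq2 1.42.0, limma 3.58.1 on log2(CPM + 1), library size alone, upper-quartile scaling, no filter, all tissues in one fit, other thresholds and leaving out libraries. The named items were the 5 genes in every library, their transcripts with at least 5% of the locus counts in a tissue, the radial spoke genes and extremes of the cilium list, and the 3 nearest named loci of each gene. Members and lists were chosen with earlier results of these data known. Transcripts singled out by their leading role in 1 library, and genes named beside the libraries of birds 11 and 12, were chosen after their values were seen. One marker of the duct epithelium and wall list is not reported here. CPM limits cover counting error only.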

Additional observations from a re-analysis of the deposited data

Results flagged for a closer look

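Of the 15 groups formed by 5 genes and 3 tissues, 1 held a library far from the rest. Chance alone flags about 1 group in 20, so 1 flag among 15 groups is near that rate. This was DRC7 in the ductus deferens, where bird 15 had 0.606 CPM while 4 of the other libraries were at 0. The gap to the next bird took up 0.713 of the whole range. The value rests on 59 counts, all on the transcript MSTRG.14095.1. In the same library CCDC40, DRC3 and CFAP69 also had their highest level among the ductus deferens samples. The cause was not tested.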

How the results depend on the processing

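Of 420 values recomputed under the alternatives, 386 kept their direction and their side of the threshold or moved by less than the spread, and none reversed. All 70 fold changes of the 5 genes between testis and ductus deferens and all 70 between epididymis and ductus deferens kept their call, and between testis and epididymis 55 of 75 kept their side of the threshold. There, leaving out each bird in turn gave 1 to 3 genes called, against 3 with all birds and 4 without the testis of bird 11. CCDC40 lost its call without bird 2, 14, 15 or 16 (range of log2 fold changes 1.06 to 1.36). RSPH9 kept its call without bird 12 and lost it without any of the others (-1.41 to -1.06), and also with upper-quartile scaling (-1.32, edgeR adjusted p 0.024) and without a filter (-1.25, edgeR adjusted p 0.012). DRC7 was called with DESeq2 (1.24) and upper-quartile scaling (1.11), and CFAP69 with DESeq2 (1.42). Member transcripts called between testis and epididymis went from 2 to 1 with library size alone and with no filter, to 0 with the bird as a block, and to between 1 and 2 on leaving out birds. With the replicate block they went from 11 to 3 between testis and ductus deferens and from 2 to 0 between epididymis and ductus deferens. Over all genes the block reduced the calls from 10237 to 6262 between testis and epididymis and from 1211 to 626 between epididymis and ductus deferens, and apart from CCDC40 it changed no call of the 5 genes. Fewer degrees of freedom are left in that fit. With library size alone the testis means of DRC3 and DRC7 moved to 133 and 83.3 CPM. The cause of the other changes was not tested. Depth limits DRC7 in the ductus deferens, where a library without counts allows up to 0.0577 CPM.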
